A study of Mus musculus with 12 samples.

Results

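Sphingosine 1-phosphate (S1P) is a lipid signal made from sphingosine by the kinases encoded by Sphk1 and Sphk2. It is carried out of cells by transporters such as Spns2, dephosphorylated by phosphatases such as the one encoded by Sgpp1, and cleaved for good by the lyase encoded by Sgpl1. Its level is high in blood and lymph and low within lymphoid tissue, and T cells leave the tissue along that gradient through the G protein-coupled receptor S1PR1. The other receptors of the family, S1PR2 to S1PR5, differ in the G proteins they use and in the cells that carry them, and S1PR5 is known for the exit of natural killer (NK) cells from bone marrow and lymph nodes and as a gene of circulating effector T cells.

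The 10 genes described here are these 5 receptors (S1pr1, S1pr2, S1pr3, S1pr4, S1pr5), the 2 kinases Sphk1 and Sphk2, the lyase gene Sgpl1, the transporter gene Spns2 and the phosphatase gene Sgpp1. They were found by symbol among the 24421 genes of a table comparing splenic CD8 T cells of mice with a triple knockout of the linker histone H1 (cTKO) with those of wild-type (WT) mice. Linker histones sit on the nucleosome where DNA enters and exits, and compact chromatin. The genes were selected on their family with the fold changes of this same contrast in view, so their differences between genotypes are a description and support no claim. A read was found in at least 1 library for 9 of the 10 genes, as for 18153 genes of the table, and 7 carried an adjusted p-value in the authors' deposited table, as did 12972 genes.

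The study's labels describe 12 samples of CD8 T, CD4 T and B cells in 6 groups of 2, and only the table of the CD8 T cells was used here. It rests on 2 WT and 2 cTKO animals of strain C57BL/6, 1 female and 1 male of each genotype, whose CD8+ splenic T cells (500000 per sort) gave paired-end libraries of polyadenylated RNA. The sources used here give neither ages, nor the alleles behind cTKO, nor any driver of the deletion, and they name no treatment. The labels do not say whether the animals were littermates. The linker histone genes Hist1h1c, Hist1h1d and Hist1h1e were taken as the targeted ones. They had 41 and 56, 5 and 11, and 64 and 112 reads in WT, and none in either cTKO library. The direction of the fold change, which the table does not state, was read from these genes, so their absence in cTKO is no separate check of it.

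Reads per library were recovered from the deposited means and fold changes. The libraries are called the larger and the smaller of each genotype, after their size factors of 1.21 and 0.866 in WT and 1.21 and 0.805 in cTKO. Between 10154269 and 16461673 reads per library were recovered, without the most abundant genes. Genes with a single read, in the larger cTKO library alone, numbered 1165. The counts were 102 for the larger WT, 97 for the smaller WT and 156 for the smaller cTKO library. Low counts in the larger cTKO library are therefore uncertain, and the source of these lone reads was not tested. The Y-linked gene Kdm5d had 0 reads in both larger libraries and 479 and 488 in the smaller ones, which places the female animals with the larger libraries. Size and sex of the libraries can therefore not be told apart. Values are given for the larger and then the smaller library, WT before cTKO. A normalized read is a read divided by the size factor. The p-values set a difference against the spread between these few animals, which is estimated with help from the other genes.

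Markers of CD8 T cells were abundant and none of the 8 differed by the authors' adjusted p under 0.05 (DESeq2). Of these, Cd3g passed at an unadjusted p under 0.05 and was lower in cTKO, and limma called 0 of the 5 with recovered reads. By limma 3334 of 12723 genes passed an unadjusted p under 0.05. Of 8 NK cell markers, 5 were higher in cTKO and 1 was lower, and their summed level was 833 and 561 normalized reads in WT against 6105 and 4513 in cTKO. B cell markers summed to 1648 and 1314 in WT and to 250 and 252 in cTKO, mostly from Cd79b and H2-Ab1. Cd79a added 38.7 and 77.4 in WT and 36.4 and 31.1 in cTKO, and Pax5 had 0, 0, 0 and 1 reads. Monocyte and macrophage markers summed to between 43.9 and 84.0 in WT and between 113 and 238 in cTKO, and neutrophil markers to 0 in every library but the larger cTKO, at 34.8. Dendritic cell markers summed to between 57.1 and 72.5 over the 4 libraries, and erythroid cell and platelet markers to between 9.06 and 64.7. Endothelial and stromal markers summed to 2051 and 1894 in WT and 442 and 399 in cTKO, almost wholly Pecam1, while Lyve1 and Tie1 had 0 reads. Of the CD4 T cell markers, Cd4 had 1, 4, 1 and 0 reads, and Zbtb7b rose from 15 and 11 reads to 110 and 34. Foxp3 went the other way, with 13 and 20 reads in WT against 9 and 9 in cTKO, and was not called.

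Of the 7 members with an adjusted p, 1 was called higher in cTKO and 0 were called lower at the authors' adjusted p under 0.05. At an unadjusted p under 0.05 the counts were again 1 and 0, by the authors' DESeq2 test as by limma. That unadjusted p was passed by 3334 of 12723 genes in limma. Over all genes 13.4% were called by the authors' test, 9.77% higher and 3.61% lower. The called member was S1pr5, at 38.7-fold the WT level. The 2 libraries of one genotype lay wholly above those of the other for 6 of the 7, every one but S1pr4, and so did those of 59.2% of the 12723 genes tested on recovered reads. In bulk RNA, more cells of a type and more RNA per cell cannot be told apart.

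S1pr5 lies on chromosome 9 (21242917 to 21248443, minus strand, GRCm38.p6, Entrez 94226). Its reads numbered 156 (larger) and 85 (smaller) for WT, against 5666 (larger) and 3307 (smaller) for cTKO. Normalized, these were 128 and 98.1 reads for WT against 4693 and 4108 for cTKO, so both cTKO libraries lay far above both WT libraries and the pair within each genotype was close. The larger library held 1.31 times the smaller one in WT and 1.14 times in cTKO. The authors' deposited table gives a log2 fold change of 5.27 (SE 0.32, n = 2 per genotype), with a 95% interval of 4.65 to 5.90. Leaving out any 1 library left a log2 ratio between 5.09 and 5.48. The call itself was lost without the larger cTKO library, with an adjusted p of 0.0566 by limma on recovered reads, against 8.996e-05 with all libraries and between 0.000134 and 0.0499 without another one. In those fits a genotype is left with 1 sample, which is assumed to vary like the others.

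Of the 8 NK cell markers, 5 were called higher as S1pr5 was, 1 was called lower and 2 were not called. Over all tested genes 9.77% were called higher and 3.61% lower. Gzma, which encodes a granule protease shared with effector T cells, had 440 and 116 WT reads and 3734 and 1889 cTKO reads, and Klrb1c (NK1.1) 180 and 119 against 1606 and 881. Klra8, a Ly49 receptor gene, had 3 and 3 reads in WT against 206 and 75 in cTKO, Tyrobp, an adaptor of activating receptors, 28 and 23 against 440 and 201, and Klre1 263 and 178 against 1329 and 575. Fcer1g, another adaptor, went the other way, from 94 and 41 reads to 10 and 9. The NK-defining receptor gene Ncr1 had 2 and 4 reads in WT against 22 and 1 in cTKO, and Klra4 2, 2, 24 and 2, and neither was called. The part of NK cells in the S1pr5 level was not tested.

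**Figure D1:**
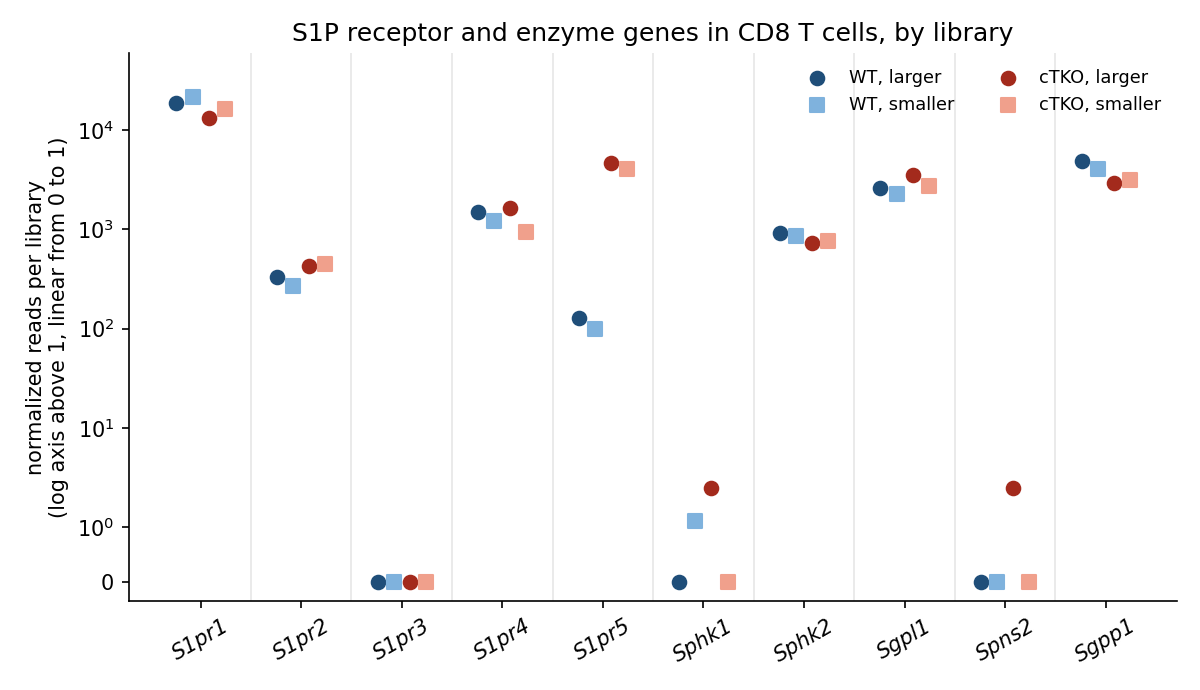
Normalized reads (vertical axis, logarithmic above 1 and linear from 0 to 1) of the 10 genes in each of the 4 CD8 T cell libraries, with blue for WT, red for cTKO, circles for the larger and squares for the smaller library. S1pr5 stands at 128 and 98.1 in WT and at 4693 and 4108 in cTKO, while the libraries of each other well-read gene sit close together.

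S1pr1, the main egress receptor of T cells (chromosome 3, 115710433 to 115715055, minus strand, Entrez 13609), was the most abundant member in all 4 libraries. Its reads numbered 22771 (larger) and 18835 (smaller) for WT, against 16194 (larger) and 13051 (smaller) for cTKO. Per size factor these were 18750 and 21749 reads in WT against 13412 and 16213 in cTKO, so the cTKO pair lay below the WT pair by a margin smaller than the gap within either genotype. The authors' log2 fold change was -0.45 (SE 0.29) with a 95% interval of -1.02 to 0.12, and it was not called. At means of 10000 to 20000 the recovery is less certain, with 23 of 24 genes right where reads were drawn with known answers and 1 solution was found.

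S1pr4, a receptor of blood cells (chromosome 10, 81497745 to 81500137, minus strand, Entrez 13611), had 1825 and 1052 reads in WT against 1966 and 765 in cTKO. The normalized values of 1503 and 1215 in WT lay between those of 1628 and 950 in cTKO, so the genotypes overlapped. The log2 fold change of -0.07 (SE 0.35) in the authors' table changed sign in 3 of 6 other computations, with a range of -0.52 to 0.26, and turned to 0.03 after centring on the genes whose mean was 100 or more. The larger cTKO library held 1.71 times the level of the smaller one, the widest gap within a genotype among the 7 tested members.

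S1pr2, which couples to G12 and G13 and restrains migration in other lymphocytes, lies on the same chromosome as S1pr5 (chromosome 9, 20965952 to 20976793, minus strand, Entrez 14739). It had 403 and 232 reads in WT against 515 and 363 in cTKO. Normalized, the cTKO libraries (427 and 451) lay above the WT libraries (332 and 268). The log2 fold change was 0.55 (SE 0.35), with an interval of -0.15 to 1.24, and it was not called.

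S1pr3, known mainly from vessels and the heart (chromosome 13, 51408618 to 51422797, plus strand, Entrez 13610), had 0 reads in every library. A count of 0 allows up to 3 reads, which is 2.47 to 3.73 normalized reads depending on the library and covers counting error only.

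To compare receptors with each other, normalized reads were divided by the length of the merged exons in kb. In WT, S1pr1 made up 89.5% and 92.5% of the summed level of the 5 receptors, S1pr4 9.16% and 6.59%, S1pr5 0.747% and 0.508%, and S1pr2 0.605% and 0.435%. In cTKO, S1pr5 made up 26.8% and 22.1%, S1pr1 62.8% and 71.7%, S1pr4 9.73% and 5.37%, and S1pr2 0.763% and 0.762%. The receptor mix thus differed between genotypes mainly in the shares of S1pr1 and S1pr5. Shares within a library are tied to each other, so a larger share of S1pr5 lowers that of S1pr1. The level of S1pr1 itself was not called (log2 fold change -0.45, SE 0.29). The summed level itself was 6879 and 7722 per kb in WT and 7016 and 7421 in cTKO, and overlapped. S1pr5 stood at 0.835% and 0.550% of the S1pr1 level per kb in WT, and at 42.6% and 30.9% in cTKO.

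**Figure D2:**
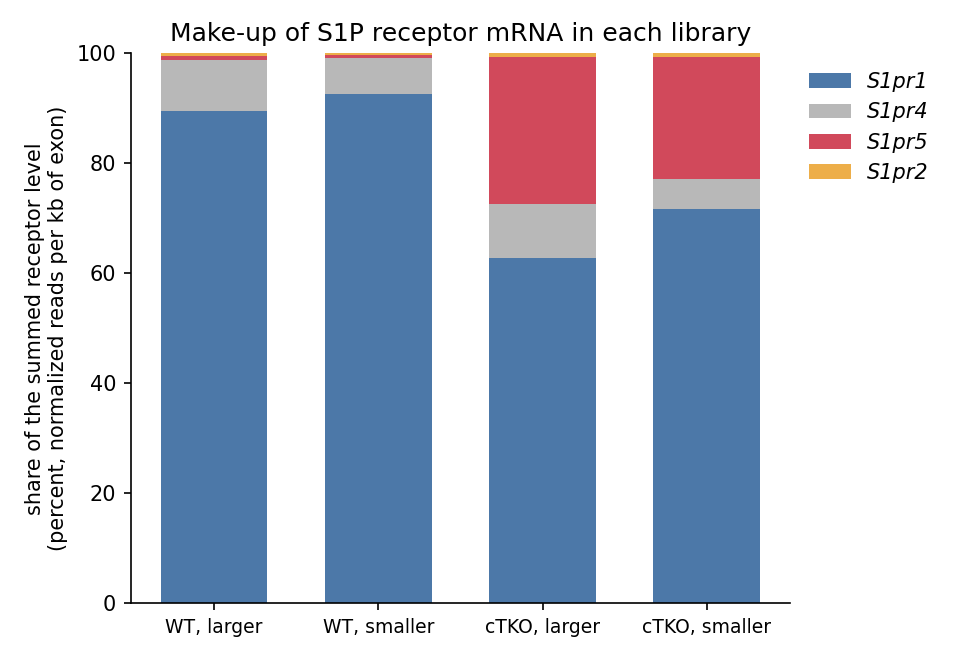
Share of each S1P receptor gene (vertical axis, percent) in the summed receptor level, in normalized reads per kb of exon, for each library; S1pr3 had 0 reads. S1pr5 takes 0.747% and 0.508% in WT and 26.8% and 22.1% in cTKO.

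Sphk2, the kinase gene with a known nuclear product (chromosome 7, 45709463 to 45718002, minus strand, Entrez 56632), carried nearly all the kinase reads. It had 1111 and 750 reads in WT against 881 and 609 in cTKO, or 915 and 866 normalized reads against 730 and 757. The cTKO libraries lay just below the WT libraries. Its log2 fold change was -0.26 (SE 0.31), and it was not called. The gene overlaps Dbp and Rpl18 in the RefSeq annotation, and no source used here gives the strand handling of the counts, so reads of the overlaps may be split or lost. Sphk1, the cytoplasmic kinase gene (chromosome 11, 116530836 to 116536675, plus strand, Entrez 20698), had 0 and 1 reads in WT against 3 and 0 in cTKO, all at or below the limit that a count of 0 allows.

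Spns2, the exporter gene used by endothelial cells to supply lymph (chromosome 11, 72451638 to 72489976, minus strand, Entrez 216892), was read 3 times in the larger cTKO library and not at all in the other 3. It overlaps Mybbp1a in the annotation, and the larger cTKO library held by far the most genes with a lone read, so these reads are uncertain.

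The genes that remove S1P were abundant. Sgpl1, the lyase gene (chromosome 10, 61098642 to 61147684, minus strand, Entrez 20397), had 3177 and 1948 reads in WT against 4255 and 2188 in cTKO. Normalized, the WT libraries stood at 2616 and 2249 and the cTKO libraries at 3524 and 2718, so the cTKO pair lay above the WT pair and the smaller cTKO library was close to the larger WT one. The log2 fold change was 0.36 (SE 0.31), not called. Sgpp1, the phosphatase gene (chromosome 12, 75714248 to 75735729, minus strand, Entrez 81535), had 5971 and 3554 reads in WT against 3525 and 2538 in cTKO. At 4917 and 4104 normalized reads in WT and 2920 and 3153 in cTKO, its cTKO libraries lay below its WT libraries. The authors' table gives -0.57 (SE 0.29) and an adjusted p of 0.195 for it.

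**Figure D3:**
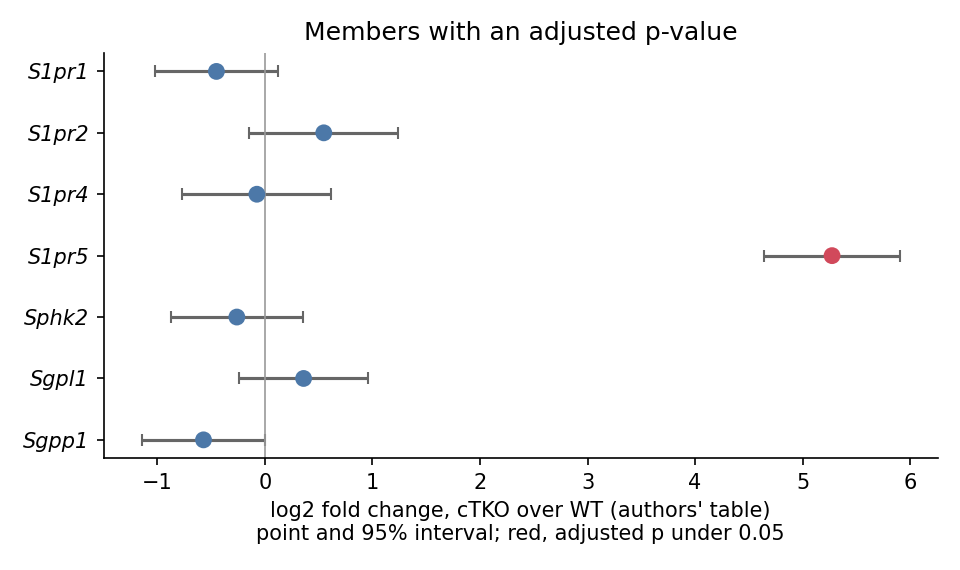
Log2 fold change of cTKO over WT (horizontal axis) for the 7 members with an adjusted p, as points with 95% intervals computed from the authors' standard errors; red marks an adjusted p under 0.05. S1pr5 stands at 5.27, and the other 6 intervals include 0.

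Ranked by level per kb, the order in WT was S1pr1 (6648), Sgpp1 (798), S1pr4 (569), Sgpl1 (396), Sphk2 (214), S1pr5 (45.3) and S1pr2 (37.6), followed by the 3 genes with almost no reads. S1pr5 and S1pr2 overlapped between the WT libraries, while every pair of neighbours above them was apart. In cTKO the order was S1pr1 (4863), S1pr5 (1760), S1pr4 (540), Sgpp1 (537), Sgpl1 (508), Sphk2 (179) and S1pr2 (55.0). S1pr5 thus stood at rank 6 in WT and rank 2 in cTKO. The 3 genes below it, S1pr4, Sgpp1 and Sgpl1, overlapped between the cTKO libraries.

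S1pr2 and S1pr5 are 266 kb apart and on the same strand, and their differences between genotypes were 0.55 and 5.27 on the log2 scale. The bases before each start are therefore shown, taken from the RefSeq promoter table of GRCm38.p6, on the minus strand, 5′ to 3′, 250 bases each (chr9:21248444-21248693 for S1pr5 and chr9:20976794-20977043 for S1pr2), with capitals for CpG dinucleotides.
S1pr5: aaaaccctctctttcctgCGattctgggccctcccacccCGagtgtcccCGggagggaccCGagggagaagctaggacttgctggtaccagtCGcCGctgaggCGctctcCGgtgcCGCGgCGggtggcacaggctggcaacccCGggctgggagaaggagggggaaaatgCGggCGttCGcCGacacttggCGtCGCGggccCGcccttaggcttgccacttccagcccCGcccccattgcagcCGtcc
S1pr2: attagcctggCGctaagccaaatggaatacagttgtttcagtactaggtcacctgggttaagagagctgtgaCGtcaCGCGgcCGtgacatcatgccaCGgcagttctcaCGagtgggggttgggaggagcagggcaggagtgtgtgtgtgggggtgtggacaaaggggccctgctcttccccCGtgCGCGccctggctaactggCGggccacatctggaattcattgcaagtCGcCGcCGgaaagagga
S1pr5 has 22 CpG in this stretch and S1pr2 has 14. Over the 300 bases of the table (250 before and 50 after the start), S1pr5 has 27 CpG and a GC content of 69.3%, and S1pr2 18 CpG and 62%, where the median of all 32851 promoters is 7 CpG and 52.7%. Among the members, Sgpl1 (38), Sgpp1 (36) and 1 of the 2 promoters of Sphk2 (33) have more CpG than S1pr5, the other promoter of Sphk2 has 27 as well, and S1pr4 has 1. A promoter was matched for 9 of the 10 members. CpG content therefore did not single out S1pr5 among them.

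Short motifs of factors named below were searched on both strands of the 300 bases. The T-box core TCACAC was in no member's promoter, and in 14.5% of all promoters. The E-box CACCTG, of the kind bound by ZEB factors, was in 2 of the 9 members, S1pr2 and S1pr4, and in 20.2% of all promoters. The KLF core CCACCC was in 5 members and in 31.5% of promoters, with 2 matches in S1pr5, and the GC box GGGCGG in 5 members and in 35.7%, again with 2 matches in S1pr5. A member was counted if any of its promoters held the motif, and Sphk1 and Sphk2 have several promoters. The percentages are shares of single promoters, so the counts of members and the percentages are in unlike units. A match is only a match of letters.

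Of 24 genes within 250 kb of S1pr5, 17 were tested and 2 called, a share near the 13.4% over all genes. Pde4a, a cAMP phosphodiesterase gene 29.7 kb away, was called higher, with a log2 fold change of 2.58 (SE 0.81) and 14 and 6 reads in WT against 78 and 38 in cTKO. Qtrt1, a tRNA-modifying enzyme gene 163 kb away, was called lower at -1.47, with 1890 and 1050 reads in WT against 406 and 535 in cTKO. The median log2 fold change of the 17 was -0.18, beside 0.04 over all tested genes. Between S1pr2 and S1pr5 lie 14 genes, of which 8 were tested, and Pde4a alone was called among them. The other 7 lay between -0.99 and 0.36, including Keap1, next to S1pr5, at -0.28, the chaperone gene Cdc37 at -0.39, the kinase gene Tyk2 at 0.36, the ribosomal protein gene Mrpl4 at -0.02, and the adhesion genes Icam1 at 0.18, Icam4 at -0.99 and Icam5 at 0.20, the last 2 with 18 reads or fewer per library. Zglp1 had 4, 0, 2 and 3 reads and Mir1900 1 read in all, and Fdx1l, Gm38431, Raver1 and Mir7082 had 0. Gm38431 overlaps Fdx1l, Raver1 and Mir7082 in the RefSeq annotation, so reads of the overlaps may be lost and these counts of 0 are uncertain.

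**Figure D4:**
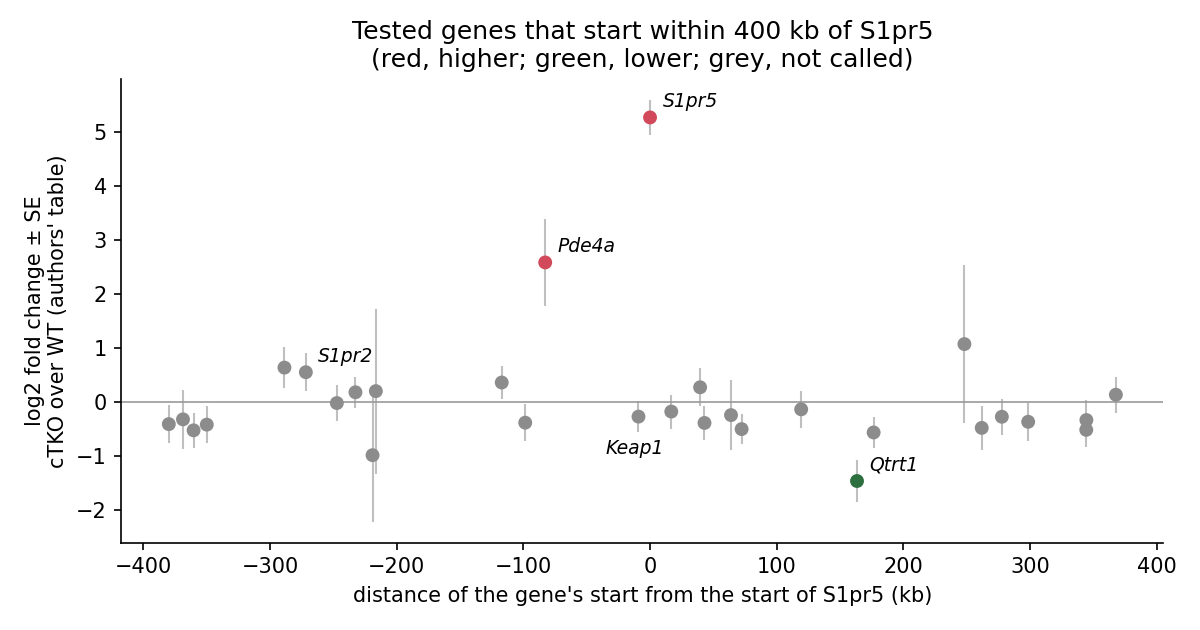
Log2 fold change ± SE of cTKO over WT (vertical axis) for the tested genes that start within 400 kb of S1pr5, against the distance of their start from that of S1pr5 (horizontal axis, kb). S1pr5 stands at 5.27 and Pde4a at 2.58 amid grey uncalled genes, with Qtrt1 called lower.

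Of 7 regulators of S1P receptors that were analysed, 4 were called higher and 1 lower, or 71.4%, beside 13.4% over all tested genes. This list and those below were chosen with earlier results of these data known, so their shares are a description only. Their median log2 fold change was 1.71, beside 0.04 over all tested genes. Zeb2, a zinc finger factor of terminal effector T and NK cells, had 58 and 29 reads in WT against 2055 and 459 in cTKO (4.80, SE 0.49). Prdm1, which encodes Blimp-1, had 93 and 56 against 1585 and 549 (3.82, SE 0.41). Eomes, a T-box factor of memory T and NK cells, had 1095 and 1157 against 5744 and 3799 (2.08, SE 0.32), and Tbx21, which encodes T-bet, a factor needed for S1pr5 in NK cells, 2079 and 1661 against 7158 and 4767 (1.71, SE 0.29). All 4 were called by limma on recovered reads too.

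Zeb2 and Prdm1 differed more between the 2 cTKO libraries than S1pr5, Tbx21 and Eomes did. The normalized level of the larger library was 1.00 times that of the smaller one for Tbx21, 1.01 times for Eomes and 1.14 times for S1pr5, but 1.92 times for Prdm1 and 2.98 times for Zeb2. These ratios come from 1 animal each, so size, sex and animal cannot be told apart.

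Cd69, whose product binds S1PR1 and removes it from the surface, was lower, with 3825 and 2296 reads in WT against 1762 and 1203 in cTKO (-0.97, SE 0.30). This call was lost in limma, with an adjusted p of 0.0562. Klf2, a transcription factor of S1pr1, had 6946 and 7733 reads against 11047 and 7197 and was not called (0.30, SE 0.32), nor was Foxo1 (-0.09, SE 0.34), which acts on Klf2. Zfp683, the gene of Hobit, was not analysed here.

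**Figure D5:**
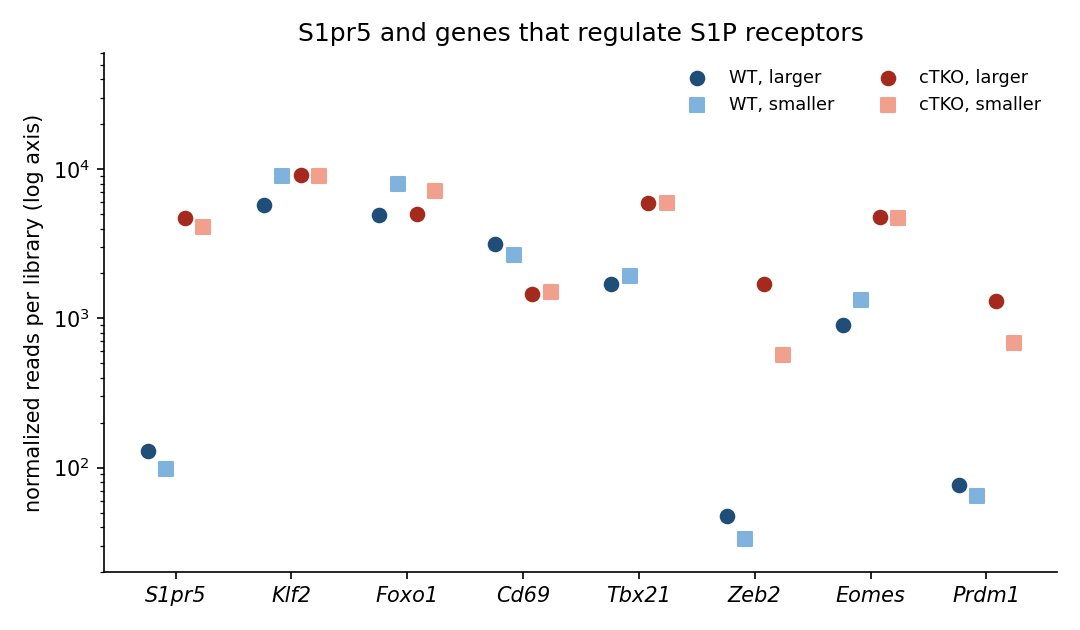
Normalized reads (vertical axis, logarithmic) of S1pr5 and of the 7 regulator genes in each library, with blue for WT, red for cTKO, circles for the larger and squares for the smaller library. The cTKO points of Tbx21 and Eomes coincide, while those of Zeb2 are 2.98-fold apart.

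Among 10 genes of egress, homing and retention, 5 were called higher and 2 lower, or 70%, beside 13.4% over all tested genes. Their median was 0.90. Cx3cr1, the fractalkine receptor of effector cells, had 153 and 66 reads in WT against 2758 and 634 in cTKO (3.92, SE 0.47). Itga1, which encodes a collagen-binding integrin of resident T cells, had 49 and 21 against 729 and 108 (3.51, SE 0.61), and Cxcr4, the receptor for CXCL12, 122 and 117 against 730 and 223 (1.91, SE 0.45). In these 3 the larger cTKO library held 2.90, 4.50 and 2.18 times the level of the smaller one, unlike S1pr5. Itgae, which encodes CD103, fell from 2375 and 1746 reads to 787 and 406 (-1.78, SE 0.31), and Ccr7, the lymph node homing receptor gene, from 27686 and 20816 to 11258 and 11983 (-0.95, SE 0.32). Cxcr3 and Itgal, a chemokine receptor and an integrin gene, were called higher as well. The calls of Ccr7, Cxcr3 and Itgal were lost in limma (adjusted p 0.0773, 0.0512 and 0.0577).

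In the signalling genes downstream of the receptors, 2 of 26 were called higher and 3 lower, or 19.2%, beside 13.4% over all tested genes. Their median was 0.10. Gnai1, an inhibitory G protein gene, had 0 reads in both WT libraries and 27 and 26 in cTKO, so no fold is given. Gna13 was higher (1.21, SE 0.37, 1144 and 1032 reads against 3941 and 1348) and its relative Gna12 lower (-2.04, SE 0.50, 220 and 161 against 40 and 46). The receptor kinase genes Grk6 (-1.14, SE 0.31) and Grk2 (-0.93, SE 0.32) were lower, and GRK2 is known to help remove S1PR1 from the surface. Limma did not call Gna13 (adjusted p 0.0832) or Grk2 (0.0804), and the reads of Grk6 were not recovered. The abundant inhibitory G protein gene Gnai2 stood at 0.01 (SE 0.30).

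In sphingolipid synthesis and turnover, 4 of 20 tested genes were called higher and 1 lower, or 25%, beside 13.4% over all tested genes. Their median was 0.04. Smpdl3b, which encodes a membrane protein of the sphingomyelinase family, had 137 and 127 reads in WT against 1389 and 923 in cTKO (3.15, SE 0.34). Galc, the galactosylceramidase gene, had 42 and 26 against 182 and 66 (1.85, SE 0.58). Smaller differences were called for Sptssa, a subunit gene of the first enzyme of the pathway (0.90, SE 0.30), and for Smpd2, a neutral sphingomyelinase gene (-0.97, SE 0.36), and limma called neither (adjusted p 0.0813 and 0.0926), nor Ugcg (0.0865), the fourth gene called higher, which encodes glucosylceramide synthase. None of the 16 tested genes of S1P supply and breakdown beyond the members was called, beside 13.4% over all tested genes. Their median was -0.15. In that list 3 passed an unadjusted p under 0.05 by the authors' test (Abca1 higher, Asah1 and Cers6 lower). Limma called 0 of the 16, and 2 passed its unadjusted p under 0.05, beside 3334 of 12723 genes. Cers1 was not analysed here.

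Among 18 related lysophospholipid receptors and near relatives, 11 were tested, and 0 were called higher and 1 lower, with a median of 0.11. The share called was 9.09%, beside 13.4% over all tested genes. Gpr34, a receptor for lysophosphatidylserine, had 970 and 408 reads in WT against 75 and 67 in cTKO (-3.14, SE 0.41). Over the 6 lists together 23 of 90 tested genes were called, 15 higher and 8 lower. Over all tested genes 13.4% were called, 9.77% higher and 3.61% lower. After centring on the genes whose mean was 100 or more, a shift of -0.10, the lists held 17 higher and 5 lower. All tested genes then held 1484 higher and 342 lower. Of these calls, 77.3% were higher in the lists and 81.3% over all tested genes. In limma 13 of the 84 list genes with recovered reads were called, beside 1118 of 12723 genes in all.

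The 5 genes whose levels over the 4 libraries lay nearest to those of S1pr5 were Ltbp1, Gpx8, Gng11, Zfp941 and Dmrt2. Their Euclidean distance was 0.365 to 0.501 in centred log2(normalized reads + 1). They came from 10829 genes with recovered reads and a mean of at least 20 normalized reads. Zfp941 had 4 and 1 reads in WT against 163 and 85 in cTKO. The other 4 had 0 reads in both WT libraries and between 32 and 63 in cTKO, at means of 20.2 to 23.0. All 5 genes passed the minimum mean only through their cTKO reads. Their WT reads were few or 0, so their distance depends on the added 1. The nearness of these 5 therefore depends on the minimum and the added 1, and nothing is concluded from it.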

How the data were processed

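Polyadenylated RNA of sorted splenic CD8 T cells was compared between 2 WT and 2 cTKO animals. The submitters' processing notes name STAR and DESeq2, with mm10 and GRCm38.p6, and no source used here gives the counter, strand setting, annotation or versions. The authors deposited, per gene, a mean normalized count over the 4 libraries (a signal, from read counts over size factors), a log2 fold change and its log2 standard error, a test score, a p-value and an adjusted p-value. The table has 0 other per-sample columns. The members and gene lists were chosen with earlier results of these data known.

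Whole reads per library were recovered as the whole numbers that give the deposited mean and, in a 2-group fit emulating that of the authors, the deposited fold change within 1e-08 on the log2 scale (0.0002 where 1 solution was left). This gave reads for 17904 of 18088 genes with a mean of at most 20000 (99.0%), with a median fold change error of 5.13e-10. Tested on simulated reads, 1 solution was found for 281 of 297 genes at means of 15 to 100, for 299 of 300 at 100 to 1000 and for 149 of 150 at 1000 to 4000, each of them right. The recovery gives the genotype and the size of a library.

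Calls are those of the authors' DESeq2 test. As an alternative, limma 3.58.1 (R 4.3.3) with a mean-variance trend was run on log2(normalized reads + 0.5) of 12723 genes, with Benjamini-Hochberg adjustment. On simulated reads it called 99 of 100 genes changed by 2 on the log2 scale and 100 of 100 changed by 5, and 12 unchanged genes in the same run. Exon lengths come from GENCODE M21 and positions from RefSeq, matched for 24387 of 24421 genes. Genes named beyond the members are up to 3 higher and 3 lower per list by fold change, defining regulators of the receptors, every called neighbour within 250 kb, every gene between S1pr2 and S1pr5, and the 5 genes most like S1pr5. Intervals are 95% from the deposited standard errors. Alternatives were another centring, no filter on the mean, a stricter threshold, other pseudocounts and windows, and leaving out each library.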

Additional observations from a re-analysis of the deposited data

How the results depend on the processing

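No paired analysis was possible because the WT and cTKO animals of the CD8 T cells carry different replicate numbers in the labels. A block on the sex and size of the library, fitted with limma and chosen after seeing the data, called 1 member (S1pr5), 21 genes of the lists and 20 neighbours, and 2118 genes in all. It leaves 1 residual degree of freedom per gene, so its spread rests almost wholly on that of all genes. For the members, 1 call was made at an adjusted p under 0.01, without the filter on the mean, with either centring, and by limma with a pseudocount of 0.5 or 2. Leaving out each library in turn gave between 0 and 1 calls by limma, with 0 without the larger cTKO library, where 1 member still passed an unadjusted p under 0.05. Of 42 recomputed fold changes of the members, 39 moved by less than the spread between libraries, 3 moved by more (S1pr2, S1pr4 and Sphk2), and the sign of S1pr4, which was not called, turned in 3. The lists held 23 called genes by the authors' test, 13 by limma, and between 1 and 8 by limma without each library (the lowest without either cTKO library). Neighbours of the members numbered 12 called within 250 kb, 6 within 100 kb and 19 within 500 kb, and between 1 and 4 by limma without each library. Over all genes the authors' test called 1736 and limma 1118 of the 12723 with recovered reads, and between 232 and 620 without each library. The limma fits of lists and neighbours were chosen after seeing the data. Which smaller differences 2 animals per genotype could show was not tested.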

Other observations

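Within 250 kb of any member lie 157 distinct genes, of which 105 were tested and 12 called, 8 higher and 4 lower, a share near the 13.4% over all genes. Near Sphk2, Rasip1, a vascular adaptor gene, had 4 and 3 reads in WT against 55 and 89 in cTKO, and Car11, 4.78 kb away and a carbonic anhydrase relative, 35 and 39 against 217 and 179. Ppp1r15a, a stress-response phosphatase subunit gene near the same member, fell from 3255 and 1791 reads to 684 and 615, with a log2 fold change of -1.84 (SE 0.33). Bcat2 (-1.31) and Grwd1 (-1.26) were lower there as well. Near Sgpl1, Adamts14 (42 and 20 reads against 184 and 54) and Pald1 (97 and 69 against 238 and 258) were higher, 49.4 and 172 kb away. Single genes were called higher near S1pr3 (Cks2, 1.45), S1pr4 (Nfic, 1.25) and Sphk1 (Ubald2, 1.39). The calls of Nfic (adjusted p 0.0870) and Adamts14 (0.0626) were lost in limma. No neighbour of S1pr1, Spns2 or Sgpp1 was called by the authors' DESeq2 test or by limma. At an unadjusted p under 0.05 there were 2 of 3, 1 of 10 and 0 of 3 tested, beside 3334 of 12723 genes by limma.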
